A study of Bos taurus with 6 samples.

Results

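Expression of 10 genes of Nodal and activin signaling was examined in a bovine embryonic stem cell (bESC) line, F7, grown on living or on dead feeder cells. The genes were taken by name for their roles in the pathway: the ligands NODAL and GDF3, the secreted antagonists LEFTY2 and CER1, the receptors ACVR1B, ACVR2A and ACVR2B, the signal transducers SMAD2 and SMAD3, and their DNA-binding partner FOXH1. The 10 genes and the gene lists used below were chosen with earlier results of these data known. All 10 were matched among the 19163 genes of the count table. F7 is 1 line, derived from in vitro fertilized embryos of Holstein Friesian cattle. In MC-F7 the feeders were mouse embryonic fibroblasts that mitomycin C had kept from dividing but left alive, and in MT-F7 they were the same kind of fibroblasts fixed with methanol, which kills them. Each group had 3 RNA-seq libraries, at 15 passages according to the deposited design. Both groups were kept in the same medium, a customized basal mTeSR1 without its growth factors, to which FGF and the Wnt inhibitor IWR1 were added. The medium was renewed every day for MC-F7 and every other day for MT-F7, so the state of the feeders and the feeding schedule cannot be told apart. For both groups, dissociated cells were placed briefly on gelatin and the floating cells were taken for RNA. The study's methods speak of technical replicates and do not describe separate cultures for the libraries of a group, so the p values measure only the spread between these libraries, which may be technical.

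Nodal, GDF3 and the activins are secreted proteins of the TGF-beta family. They bind a complex of type II receptors (ACVR2A, ACVR2B) and type I receptors (ACVR1B, ACVR1C), which phosphorylates SMAD2 and SMAD3. These join SMAD4, enter the nucleus and act on target genes together with partners such as FOXH1. Nodal and GDF3 also need the coreceptor TDGF1 (also named CRIPTO), whereas activins do not. LEFTY2 and CER1 are extracellular inhibitors, and LEFTY2 is itself a target of the pathway. In embryos the pathway patterns the early axis and induces mesoderm and endoderm, and in primed pluripotent stem cells it sustains NANOG.

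The libraries held 21958386 to 24933430 counts on genes, and 3 counts, the smallest amount taken as detected, corresponded to 0.12 to 0.137 counts per 1000000 (CPM). Limits of this kind cover counting error only. Genes of the mitochondrial genome took 16.3% to 28.3% of the counts, most in replicate 3 of both groups. POU5F1, a defining factor of pluripotent cells, was measured at 825 to 1456 CPM in MC-F7 and at 486 to 557 CPM in MT-F7. Of 5 epiblast markers tested, 4 fell in MT-F7, where 11.3% of all tested genes fell and 11.9% rose. The summed level of the epiblast list was 1343 to 2012 CPM in MC-F7 and 738 to 854 CPM in MT-F7. SOX2 of this list was not matched in the count table, nor were MESP1 of the mesoderm list and SOX1 of the neural list. The endoderm list summed to 5.71 to 7.67 CPM in MC-F7 and 1.70 to 2.42 CPM in MT-F7, with GATA4 at 0 in every library. The change of that sum was carried by FOXA2, which fell (4.82 to 0.503 CPM on average). PDGFRA, the other tested gene, did not pass (1.01 to 1.18 CPM). The mesoderm list summed to 8.66 to 10.04 CPM and 9.94 to 11.8 CPM, with HAND1 at 0; of its 2 tested genes KDR rose (3.79 to 7.89 CPM on average) and EOMES fell. The neural list summed to 299 to 354 CPM and 432 to 519 CPM, mostly NES, which did not pass the test (adjusted p = 0.0831), while PAX6 (2.63 to 19.9 CPM on average) and MAP2 (9.37 to 41.2 CPM) rose. The trophectoderm list summed to 1826 to 2831 CPM and 679 to 792 CPM, carried in both groups by KRT8 and KRT18, while CDX2 was at 0. The fibroblast list summed to 223 to 300 CPM in MC-F7 and 341 to 395 CPM in MT-F7, a sum carried by COL1A1, which did not pass (adjusted p = 0.0942). Of its 10 genes, 3 rose (COL3A1, PDGFRB and POSTN), 1 fell (TWIST2) and 6 did not pass. The part of these shifts in the values below was not tested. The paper reports that a larger share of MT-F7 than of MC-F7 reads aligned to the cattle genome. It proposes that fixed feeders left less feeder contamination in the cultures. Any part of mouse reads in the values here was not tested. In bulk RNA, fewer cells of a type and less RNA per cell cannot be told apart.

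The ligand GDF3, the antagonist LEFTY2 and the transcription factor FOXH1 fell in MT-F7, and SMAD2 rose. The fitted fall was 28.6-fold for LEFTY2, 16.2-fold for GDF3 and 2.85-fold for FOXH1, and the rise of SMAD2 was 1.56-fold. Of the 10 genes, 8 had enough counts to be tested, 4 passed an adjusted p under 0.05 (1 higher, 3 lower) and 4 did not. Over all 13001 tested genes, 23.2% passed the same threshold, 11.9% in the higher and 11.3% in the lower direction. The 4 genes that passed were also those tested whose groups did not overlap, against 40.0% of all tested genes (MT-F7 above in 19.9%, below in 20.1%). The median log2 fold change was -0.35 over the 8 genes and -0.0026 over all tested genes. The genes were chosen with earlier results of these data known, and LEFTY2 entered the test only through its MC-F7 libraries. The counts and the median are therefore a description of these genes. NODAL had too few counts for the test and CER1 had none. The test was edgeR's quasi-likelihood test on counts, two-sided, with Benjamini-Hochberg adjustment over all tested genes. Fold changes are given as MT-F7 against MC-F7.

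**Figure D1:**
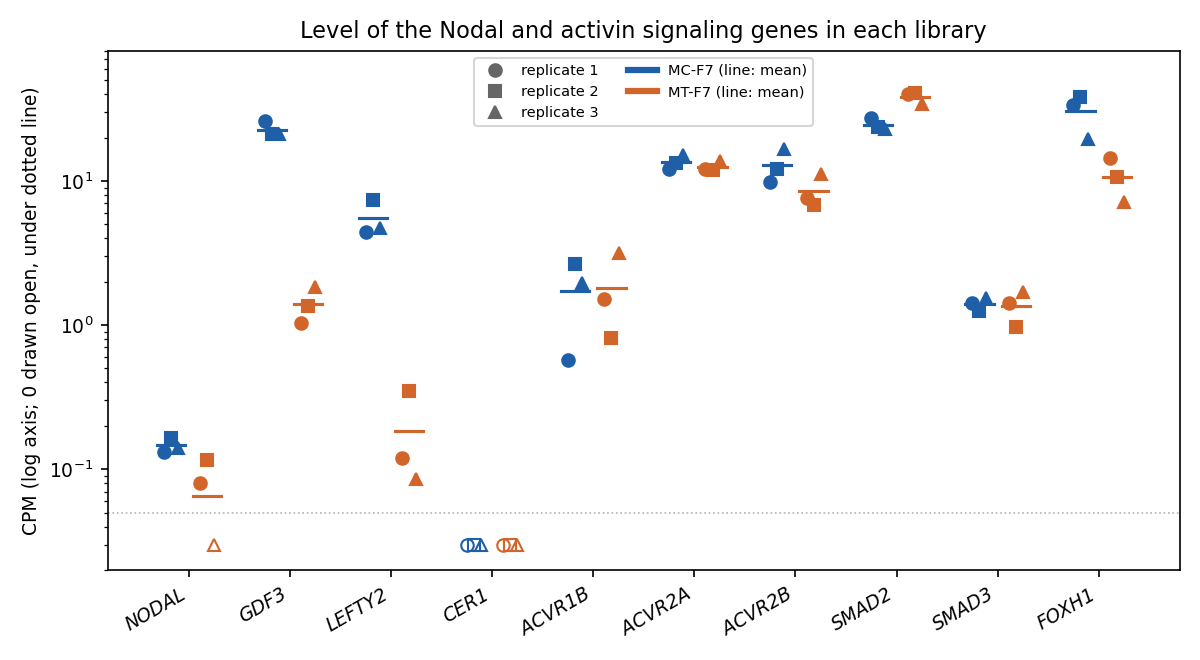
Level of each of the 10 genes in every library, in CPM on a log axis, for MC-F7 and MT-F7 (3 libraries each), with open symbols on the lowest line for libraries at 0 counts. GDF3, LEFTY2 and FOXH1 lie lower in all 3 MT-F7 libraries and SMAD2 lies higher, whereas the receptors and SMAD3 overlap between groups.

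NODAL transcripts were near the limit of detection in both groups. NODAL, the ligand that gives the pathway its name, was represented by 3, 4 and 3 reads in MC-F7 against 2, 3 and 0 reads in MT-F7. Pooled, these were 10 reads against 5, a ratio (MT-F7 over MC-F7) of rates of 0.457 with an exact 95% interval of 0.123 to 1.47 that covers counting error only. In CPM the MT-F7 libraries lay below those of MC-F7, at 0.0797, 0.116 and 0 against 0.133, 0.166 and 0.14, but the interval included a ratio of 1, and a difference of this size was not detectable at this depth.

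GDF3, a ligand of pluripotent cells that signals through the same receptors, was expressed far above NODAL per gene length, at 27.0 against 0.184 TPM in MC-F7 (TPM rescaled to 1000000 per library). Its levels were 25.9, 21.2 and 21.1 CPM in MC-F7 against 1.04, 1.35 and 1.83 CPM in MT-F7. Every MC-F7 library lay above every MT-F7 library by a wide margin, and the values within each group were close together. The log2 fold change of GDF3 was -4.02 (standard error 0.237, 95% interval -4.53 to -3.50, adjusted p = 6.39e-07), the 18th lowest of all tested genes. The fall of GDF3 passed the threshold in all 17 other settings tried. By limma on the deposited TPM without rescaling, its log2 fold change was -2.03 with a pseudocount of 1 and -3.51 with 0.1. Those TPM summed to 154763 to 164394 per library, so they were smaller than the rescaled values above and these sizes depended on the pseudocount.

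Activin subunits were low as well. INHBA, the subunit that forms activin A, had 51, 38 and 40 counts in MC-F7 against 19, 42 and 46 counts in MT-F7. The groups overlapped, and the log2 fold change of -0.40 did not pass the threshold (95% interval -1.24 to 0.44, adjusted p = 0.503). INHBB, the subunit of activin B, had 9, 1 and 0 counts in MC-F7 and 0 in every MT-F7 library, so that its counts came mostly from 1 library. INHBE, a further member of the inhibin subunit family, fell from 6.28 ± 1.08 CPM to 1.17 ± 0.383 CPM (SD, n = 3), a log2 fold change of -2.42 (adjusted p = 0.000102).

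TDGF1, the coreceptor of Nodal and GDF3, fell together with GDF3. Its counts were 328, 340 and 194 in MC-F7 against 46, 47 and 55 in MT-F7, without overlap. In CPM this was 12.6 ± 3.03 against 1.99 ± 0.295, or -2.65 on the log2 scale (standard error 0.25, adjusted p = 1.12e-05). Of the 10 genes listed as other ligands or coreceptors, 6 were tested. INHBE and TDGF1 fell, none rose, and 4 did not pass, namely INHBA, INHA, GDF1 and GDF11. Of all tested genes, 11.3% fell and 11.9% rose. Reads of GDF1 may be shared with CERS1 and UPF1, which overlap it in the annotation. INHBC was at 0 counts in every library, and MSTN had at most 9 counts. CFC1 was not analysed here. FURIN and PCSK6, convertases that can cleave the precursors of these ligands, did not pass the threshold, with adjusted p of 0.13 and 0.0864. Their MT-F7 libraries all lay below their MC-F7 libraries, as in 20.1% of all tested genes. The log2 fold change was -0.35 for FURIN (95% interval -0.69 to -0.009) and -1.14 for PCSK6 (-2.11 to -0.17).

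Among the antagonists, LEFTY2 fell to a few reads per library. LEFTY2 was measured at 4.42, 7.34 and 4.72 CPM in MC-F7 against 0.12, 0.348 and 0.0849 CPM in MT-F7. In counts the MC-F7 libraries held 100, 177 and 101 and the MT-F7 libraries 3, 9 and 2, so the groups were far apart and the MT-F7 level rested on few reads. Its log2 fold change was -4.84 (standard error 0.454, 95% interval -5.82 to -3.86, adjusted p = 1.09e-05), the 7th lowest of all tested genes. LEFTY2 passed the count filter only through its MC-F7 libraries, the group where it was high, so its rank and p are to be read with its counts. Its log2 fold change was -5.67 without MT-F7 replicate 2, the MT-F7 library with the most LEFTY2 counts. By limma on the deposited TPM without rescaling it was -0.96 with a pseudocount of 1 and -3.02 with 0.1. LEFTY1, its paralog, was not analysed here. CER1, an inhibitor secreted by the anterior visceral endoderm of the embryo, had 0 counts in all 6 libraries, which allows a level of up to 0.044 CPM over the MC-F7 group and 0.0402 CPM over the MT-F7 group.

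The genes whose pattern over the 6 libraries was most like that of LEFTY2 were PRMT8, PTGES and ADM. Likeness was the root mean square difference of log2(CPM + 0.5), centred on each gene's own mean, among the 11931 tested genes whose mean reached 1 CPM. PRMT8, an arginine methyltransferase, was nearest at 0.248, with 155, 211 and 149 counts in MC-F7 against 18, 19 and 14 in MT-F7. PTGES, a prostaglandin E synthase, was at 0.298, and ADM, the peptide hormone adrenomedullin, was at 0.306. Like LEFTY2, all 3 had their most counts in MC-F7 replicate 2 and far fewer in every MT-F7 library. NODAL was not tested and was given no such comparison.

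The antagonists that bind activins moved in both directions. FST (follistatin), which binds activins and keeps them from their receptors, rose from 19.1 ± 2.65 CPM to 54.3 ± 5.98 CPM (SD, n = 3). Its counts were 495, 457 and 355 in MC-F7 against 1510, 1248 and 1283 in MT-F7, without overlap, and its log2 fold change was 1.5 (standard error 0.167, adjusted p = 4.28e-05). FSTL3, a follistatin-like protein that also binds activins, fell from 35.1 ± 3.29 CPM to 15.5 ± 0.156 CPM (log2 fold change -1.18, adjusted p = 0.000158). TMEFF1, a membrane protein that interferes with Nodal signaling, had 160, 223 and 123 counts in MC-F7 against 429, 476 and 192 in MT-F7. The log2 fold change of TMEFF1 was 0.98 (adjusted p = 0.025), but its groups overlapped through MT-F7 replicate 3. TMEFF1 passed in 10 of 17 other settings and in 2 of the 6 that left out 1 library, with adjusted p of up to 0.101 without MC-F7 replicate 1 or 3 or MT-F7 replicate 1 or 2. Reads of the overlapping gene CAVIN4 may be shared with it. BAMBI, a pseudoreceptor, did not pass (log2 fold change 0.67, adjusted p = 0.416). Fibroblasts can secrete follistatin, and the cells were taken after the gelatin step. Of the 10 fibroblast markers above 3 rose, 1 fell and 6 did not pass, against 11.9% higher and 11.3% lower of all tested genes. The part of fibroblasts in the FST values was not tested.

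**Figure D2:**
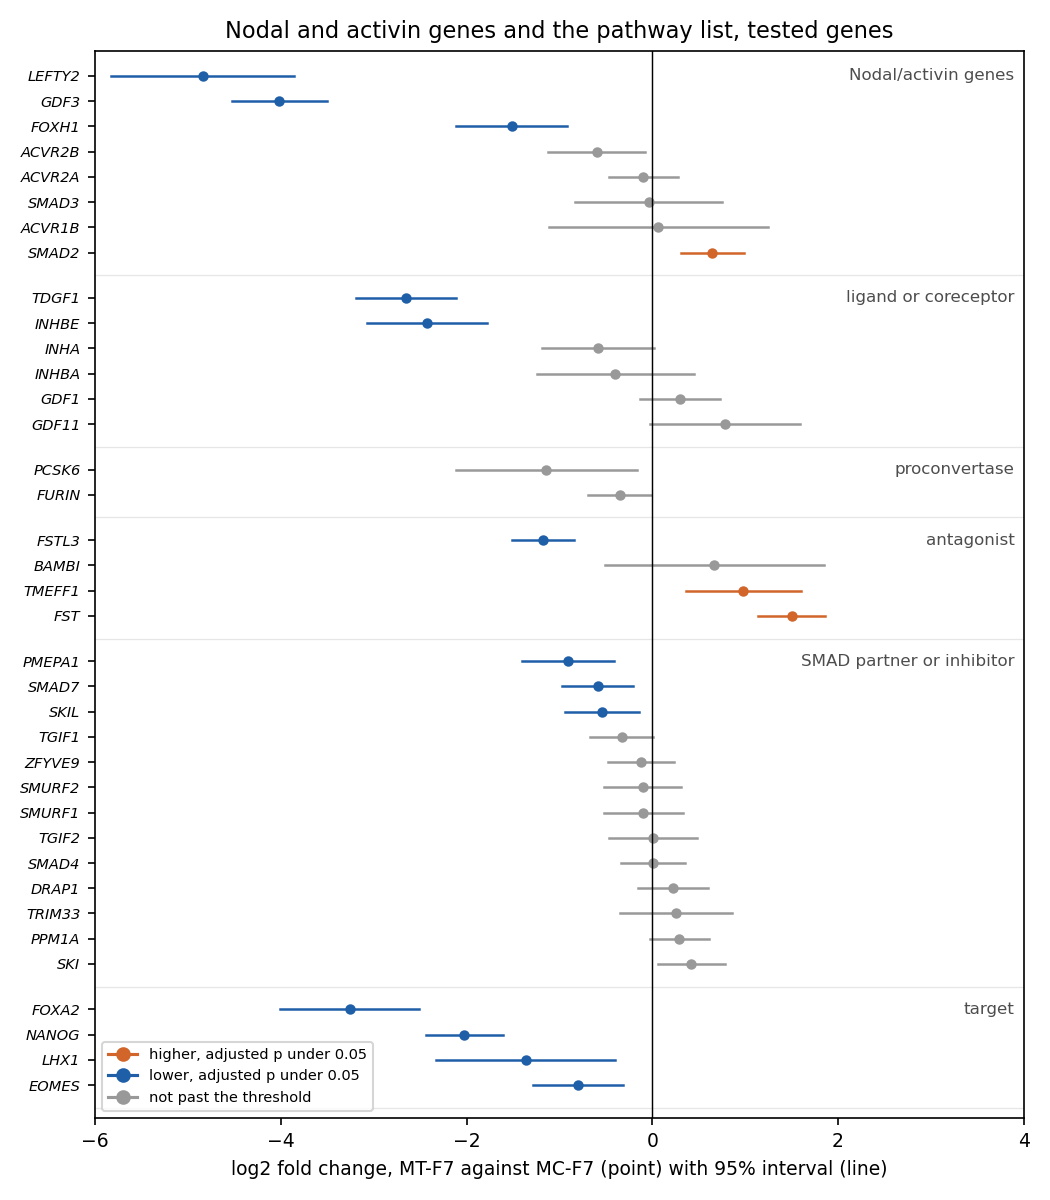
Log2 fold change of MT-F7 against MC-F7 with its 95% interval from edgeR, for the tested Nodal and activin genes and the tested genes of the pathway list, ordered by role. GDF3, LEFTY2, TDGF1 and the targets FOXA2 and NANOG lie well below 0, and the targets LHX1 and EOMES lie below it but nearer. FST lies above 0, and most SMAD partners lie near it.

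None of the receptors passed the threshold in the fit used here. ACVR2A, a type II receptor for activins and Nodal, was measured at 12.1, 13.2 and 15.1 CPM in MC-F7 against 12.1, 12.0 and 13.7 CPM in MT-F7. The groups overlapped almost entirely, and its log2 fold change was -0.10 (95% interval -0.47 to 0.27, adjusted p = 0.722). ACVR2B, the other type II receptor, was at 9.91, 12.1 and 16.6 CPM in MC-F7 against 7.65, 6.80 and 11.1 CPM in MT-F7. In both groups replicate 3 was the highest for ACVR2B, and MT-F7 replicate 3 lay above MC-F7 replicate 1. Its log2 fold change was -0.60 (95% interval -1.12 to -0.08), with an unadjusted p = 0.0282 and an adjusted p = 0.0936. Leaving out single libraries moved ACVR2B to either side of the threshold, with an adjusted p of 0.0248 without MT-F7 replicate 3 and 0.275 without MC-F7 replicate 3. Without replicate 3 of both groups, the adjusted p for ACVR2B was 0.0341.

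ACVR1B, the type I receptor that phosphorylates SMAD2 and SMAD3, was low and uneven. Its levels were 0.575, 2.65 and 1.96 CPM in MC-F7 against 1.51, 0.811 and 3.14 CPM in MT-F7. The coefficient of variation was 61.2% in MC-F7 and 65.6% in MT-F7, and the groups covered largely the same range. The log2 fold change of ACVR1B was 0.06 with a 95% interval of -1.12 to 1.24 (adjusted p = 0.946), so a change of either sign of more than 2-fold is inside the interval. ACVR1C, the other type I receptor for Nodal, had 0 counts in every library.

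The balance of the type II receptors was compared within libraries, on the deposited per-length values. The ratio of ACVR2A to ACVR2B was 0.884, 0.787 and 0.655 in MC-F7 against 1.14, 1.27 and 0.888 in MT-F7. All MT-F7 values lay above all MC-F7 values, the nearest pair being 0.888 and 0.884. The ratio was 1.41 times higher in MT-F7 (exact permutation test, two-sided, p = 0.1, the smallest value that 3 against 3 libraries allow).

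Downstream of the receptors, SMAD2 and SMAD3 did not show the same values. SMAD2 was measured at 27.2, 23.6 and 22.8 CPM in MC-F7 against 40.1, 40.9 and 34.1 CPM in MT-F7. The groups did not overlap, and SMAD2 rose by 0.64 on the log2 scale (standard error 0.157, 95% interval 0.31 to 0.98, adjusted p = 0.00994). This rise ranked 1821st from the highest of the 13001 tested genes. Without MC-F7 replicate 2 the adjusted p of SMAD2 was 0.0624, and without MT-F7 replicate 1 it was 0.0505. In the reference annotation SMAD2 overlaps an uncharacterized locus, LOC101904605, that the count table did not hold.

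SMAD3 was measured at 1.42, 1.24 and 1.54 CPM in MC-F7 against 1.43, 0.966 and 1.70 CPM in MT-F7. The MT-F7 values enclosed those of MC-F7, and the log2 fold change of SMAD3 was -0.04 (95% interval -0.83 to 0.75, adjusted p = 0.954). Per length, SMAD2 exceeded SMAD3 in every library. The ratio of SMAD2 to SMAD3 was 19.7, 19.4 and 15.1 in MC-F7 against 28.6, 43.3 and 20.5 in MT-F7. The MT-F7 ratios were all above the MC-F7 ratios but varied more, with 30.8 ± 11.6 against 18.1 ± 2.54 (SD, n = 3). On the log2 scale the ratio was 0.71 higher in MT-F7 (exact permutation test, two-sided, p = 0.1, the smallest possible). Without MT-F7 replicate 2, the highest library, that difference was 0.43.

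**Figure D3:**
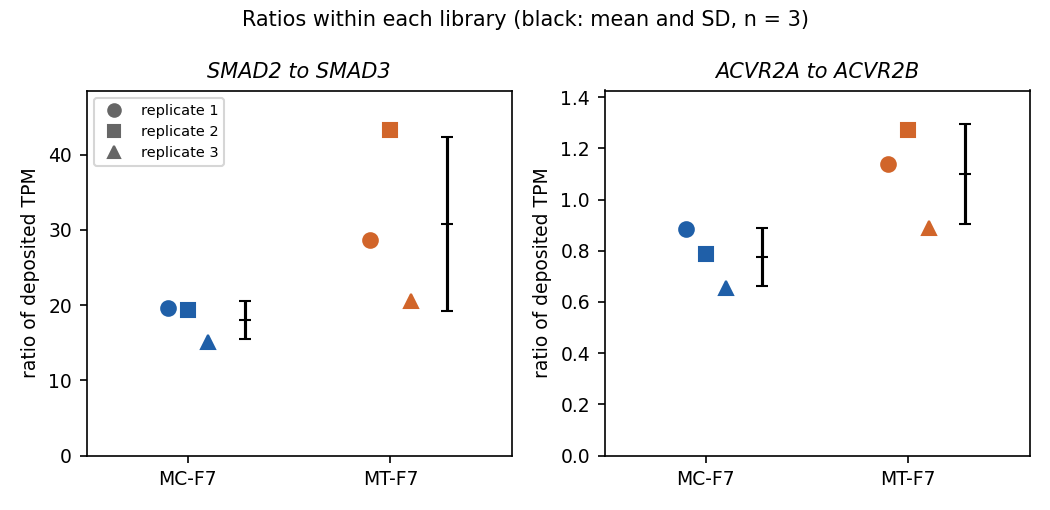
Ratio of deposited per-length values within each library, SMAD2 to SMAD3 on the left and ACVR2A to ACVR2B on the right, with the mean and SD of the 3 libraries in black and replicates by symbol. MT-F7 replicate 2 has the highest value of both ratios, 43.3 and 1.27, and replicate 3 the lowest of its group.

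FOXH1, the partner that brings the SMAD complex to DNA, fell in MT-F7. It was measured at 33.4, 38.4 and 19.6 CPM in MC-F7 against 14.3, 10.6 and 7.13 CPM in MT-F7. All MT-F7 libraries were below all MC-F7 libraries, and in both groups replicate 3, which also had the largest mitochondrial share, was the lowest. The log2 fold change of FOXH1 was -1.51 (standard error 0.276, 95% interval -2.11 to -0.91, adjusted p = 0.00178), the 395th lowest of all tested genes. The value was -1.51 without replicate 3 of both groups as well (adjusted p = 5.26e-06). On the deposited TPM with limma, the adjusted p of FOXH1 was 0.0607 with a pseudocount of 1 and 0.0505 with a pseudocount of 0.1.

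SMAD4, the common partner, was measured at 61.6 ± 5.93 CPM in MC-F7 and 62.2 ± 8.97 CPM in MT-F7 (log2 fold change 0.01, 95% interval -0.33 to 0.36, adjusted p = 0.965). Of the 13 SMAD partners and inhibitors listed, all were tested, 3 fell, none rose and 10 did not pass, a share near the 23.2% of all tested genes. The 3 that fell were PMEPA1, SMAD7 and SKIL. Of the 13, 7 had a negative log2 fold change and 6 a positive one, among them SKI (0.42, adjusted p = 0.089). PMEPA1, which sequesters SMAD2 and SMAD3, fell from 6.09 ± 0.852 CPM to 3.24 ± 0.354 CPM (log2 fold change -0.91, adjusted p = 0.0123). SMAD7, an inhibitory SMAD, fell from 14.9 ± 0.76 CPM to 9.89 ± 1.49 CPM (log2 fold change -0.59, adjusted p = 0.0295). SKIL, a nuclear corepressor, had a log2 fold change of -0.54 with an adjusted p of 0.04998, just inside the threshold. The calls for these 3 genes were less firm than those for LEFTY2 and GDF3. When single libraries were left out, PMEPA1 passed in 4 of 6 fits, with an adjusted p of up to 0.0759 without MC-F7 replicate 2 or MT-F7 replicate 1. SMAD7 passed only without MT-F7 replicate 1 (adjusted p of up to 0.108 in the others), and SKIL passed in 0 of the 6 (up to 0.17).

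Of 8 genes listed as targets of the pathway in embryos and pluripotent cells, 4 were tested and all 4 fell in MT-F7, where 11.3% of all tested genes fell. Their median log2 fold change was -1.69. FOXA2 and LHX1 reached the count minimum in all 3 MC-F7 libraries but in only 1 and 2 MT-F7 libraries. The list was also chosen with earlier results of these data known, so this count is a description and not independent support. FOXA2, a transcription factor of endoderm and the axial midline, had 105, 122 and 102 counts in MC-F7 against 10, 9 and 18 in MT-F7, a log2 fold change of -3.26 (adjusted p = 3.11e-05). NANOG, a pluripotency factor, fell from 43.5 ± 9.03 CPM to 10.7 ± 1.23 CPM (log2 fold change -2.02, adjusted p = 1.14e-05). EOMES, a factor of mesendoderm, fell from 5.49 ± 0.211 CPM to 3.16 ± 0.244 CPM (log2 fold change -0.80, adjusted p = 0.0211), but missed the threshold without MC-F7 replicate 2 or MT-F7 replicate 1 or 2 (adjusted p up to 0.0749). LHX1, a factor of the organizer, had 30, 34 and 30 counts in MC-F7 against 18, 16 and 6 in MT-F7 (log2 fold change -1.36, adjusted p = 0.0421), and passed in none of the 6 fits that left out 1 library (adjusted p 0.0597 to 0.119).

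The remaining targets were too low to test. TBXT, the mesoderm factor brachyury, had 1 count in 1 MC-F7 library and none elsewhere. MIXL1 had 4, 5 and 0 counts in MC-F7 and 0 in every MT-F7 library. GSC had at most 9 counts and SOX17 at most 11 counts in any library. NANOG is also in the epiblast list, FOXA2 in the endoderm list and EOMES in the mesoderm list, so those lists and the target list are not separate evidence. Over the whole pathway list, 37 of 39 genes were matched, 29 were tested, 2 rose (FST and TMEFF1), 10 fell and 17 did not pass, against the 23.2% of all genes given above. The median log2 fold change of the list was -0.33.

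The order of the Nodal and activin genes by level was not the same on both feeders. For this the deposited TPM, which account for gene length, were rescaled to 1000000 per library. In MC-F7 the highest was FOXH1 at 34.3 ± 12.0 (SD, n = 3), whose libraries overlapped those of GDF3 at 27.0 ± 3.23. SMAD2 followed at 14.4, then LEFTY2 at 6.53 and ACVR2B at 5.20, which overlapped each other, and ACVR2A at 3.93, which overlapped ACVR2B. ACVR1B at 1.43 and SMAD3 at 0.80 also overlapped, and NODAL was at 0.184. In MT-F7 the highest was SMAD2 at 23.8 ± 3.34, followed by FOXH1 at 12.7 ± 4.56, without overlap. ACVR2A at 3.88 and ACVR2B at 3.62 overlapped, as did GDF3 at 1.76, ACVR1B at 1.55 and SMAD3 at 0.821, each with the next. LEFTY2 at 0.234 and NODAL at 0.0887 came last above CER1, and their libraries overlapped. GDF3 stood above 85.3% of all genes in MC-F7 and above 51.8% in MT-F7, whereas SMAD2 stood above 77.2% and 83.2%.

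**Figure D4:**
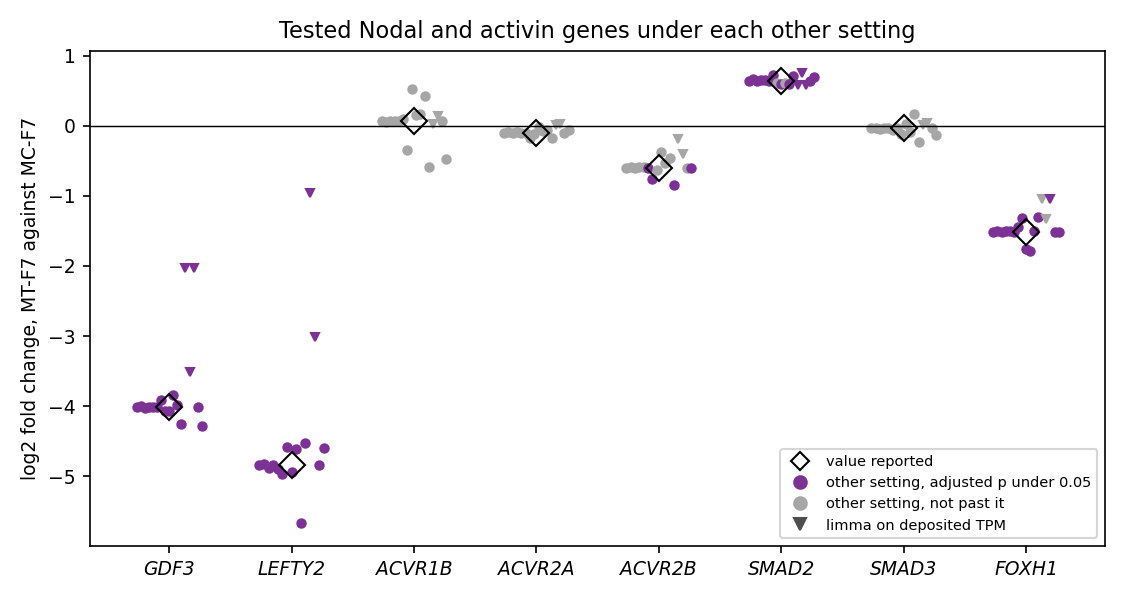
Log2 fold change of the 8 tested genes as reported (open diamonds) and under each other setting of the analysis, with settings past an adjusted p of 0.05 in purple and the others in grey, and fits on deposited TPM as triangles. GDF3 and LEFTY2 stay below 0 and past the threshold in every setting that kept them, while the values of ACVR1B, ACVR2A and SMAD3 lie on both sides of 0.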

How the data were processed

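RNA was sequenced as 150 bp paired reads from NEBNext Ultra libraries of MC-F7 and MT-F7 (3 each). Per the labels and methods, the authors aligned reads with HISAT2 2.0.5 to the Bos taurus genome (build not given in the sources used here) and counted them with featureCounts 1.5.0-p3. They deposited raw counts per Entrez gene. They also deposited a table of TPM, in which no library adds up to 1000000; for the 44 genes compared, the ratio of TPM to count did not vary between libraries (largest over smallest 1.0000001). Its 21653 lines had 159 identifiers on more than 1 line, leaving 21357 genes.

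Symbols came from RefSeq (ARS-UCD2.0), which matched 19074 of 19163 identifiers. In edgeR 4.0.16 (R 4.3.3), filterByExpr (minimum count 10, total 15) kept 13001 genes, TMM factors were 0.971 to 1.04, and glmQLFTest was run without a block. Intervals are 95%. Steps were tested on simulated data.

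The members and lists were chosen with earlier results of these data known. Text names all members, 7 fixed pathway genes, then pathway genes with adjusted p under 0.05 and, after seeing values, some that missed it or had low counts. Alternatives were RLE factors, library size only, DESeq2 1.42.0, 2 other count filters, a replicate block, each library left out, limma 3.58.1 on log2(TPM + 1) and log2(TPM + 0.1), mean TPM of at least 1, and mitochondrial genes left out. The limma fits took the deposited TPM without rescaling. Leaving out replicate 3 of both groups was chosen after seeing the data. Python 3.11.15, pandas 2.3.3 and scipy 1.17.1 made the tables. One gene of the pathway list is not reported here and is left out of its counts. No sequence was printed.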

Additional observations from a re-analysis of the deposited data

How the results depend on the processing

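Of the 8 tested Nodal and activin genes, 3 to 5 passed when 1 library was left out. With the replicate number as a block, 5 passed, ACVR2B (adjusted p = 0.00874) having joined, as did 14 of the pathway list and 4674 of all genes (2373 higher, 2301 lower), against 3016. Deviations of same-numbered libraries correlated by 0.167, 0.0707 and 0.505, and MC-F7 replicate 1 correlated best with MT-F7 replicate 2 (0.368), so the numbers were not taken to pair the libraries. Leaving out 1 library gave 1914 to 3093 genes in all and 7 to 11 of the pathway list, lowest without MC-F7 replicate 2 in all and without MC-F7 replicate 2, MT-F7 replicate 1 or MT-F7 replicate 2 in the list. Limma on log2(TPM + 0.1) called 7 of the list, and with a minimum mean TPM of 1 it called 4 of the list (fewer were tested) and 1399 in all. Limma moved the split of calls from 1553 higher and 1463 lower to 1547 and 820 with a pseudocount of 1. The split was 1581 and 845 with 0.1, and 948 and 451 with the mean filter. These fits took the deposited TPM without rescaling or other correction for depth. The deposited TPM summed to 154763 to 161716 in MC-F7 libraries and to 163772 to 164394 in MT-F7 libraries. The part of these sums in the split was not tested.

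The signs of 4 uncalled genes turned. The log2 fold change of ACVR1B was -0.59 to 0.52 with 1 library left out and -0.47 without replicate 3 of both groups. That of SMAD3 was -0.23 to 0.16 with 1 library left out, and by limma 0.0099 with a pseudocount of 1 and 0.042 with 0.1. That of ACVR2A was 0.013 and 0.029 by these fits, its only positive values, and -0.17 to -0.018 with 1 library left out. That of SMAD4 was -0.057 to 0.12 with 1 library left out. LEFTY2 passed in all 15 settings that kept it, SMAD2 and FOXH1 in 15 of 17. Depth limits NODAL, CER1 and ACVR1C.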
